A study of Caenorhabditis elegans with 2 samples.

Results

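SNPC-4 binding sites that lay away from every annotated gene start were examined on chromosomes I, II, III and V of Caenorhabditis elegans. A region was a member when it stood in the authors' optimal peak list, lay on one of these 4 chromosomes, and had its summit more than 300 bp from the annotated 5′ end of any gene of any biotype. By this rule 254 of the 1781 peaks in the list were members, 50 on I, 71 on II, 77 on III and 56 on V. A further 629 peaks on the same chromosomes had a gene 5′ end within 300 bp and are called gene-start peaks, 449 of them within 300 bp of a protein-coding start. Another 190 peaks without a gene start lay on IV and X. The data came from chromatin immunoprecipitation and sequencing (ChIP-seq) of eGFP-tagged SNPC-4 in whole young adult worms of pooled sex. All worms were of a single transgenic strain, OP179, with the genotype unc-119(ed3) III; wgIs179, where wgIs179 is the inserted transgene that supplies the tagged protein. There was 1 group of 2 biological replicates, and no control library was analysed here.

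SNPC-4 belongs to SNAPc, the complex that activates small nuclear RNA (snRNA) promoters, and is its DNA-binding subunit. The complex binds a proximal sequence element upstream of snRNA genes and recruits RNA polymerase II to most of them and RNA polymerase III to the U6 type. In nematodes it also acts at genes for spliced leader (SL) RNA and at the piRNA (21U-RNA) genes of the germ line, and small nucleolar RNA (snoRNA) genes can carry the same kind of promoter. A peak with no annotated gene start beside it has no such gene to which the binding can be assigned, so its place, its strength and its sequence are what the files and the genome can show.

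The sequence that carries most of what follows is the upstream element of small RNA genes. A 22 bp matrix of it was learned from the upstream sequences of 144 annotated snRNA, SL RNA and snoRNA genes with an optimal peak, none of which is a member, and 88 of them held it with its centre at a median of 58 bp upstream of the gene. The stretches shown are 30 bases long, read 5′ to 3′ on the stated strand from the RefSeq genome of build WBcel235, and the capitals mark the 10-base core, which is GCGGAACCCG in the most frequent form. The first 5 are the members with the highest signal among carriers on II, III and V, and the last 2 stand upstream of annotated snoRNA genes on chromosome IV.
bed-2 3′ UTR, chrIII:11464008-11464037, plus strand: actacaagtgGCGGAACCCGggaagcgtcg
Y46G5A.34 intron, chrII:12778516-12778545, minus strand: agagtgtgagGCGGCGCGCGcgcaatggcc
C33B4.4 intron, chrII:11376969-11376998, minus strand: aaggcgaggcGCGGAACCCGtaagatgtcg
beside cyp-13A2, chrII:9787963-9787992, minus strand: acggtgtgtgGCGGAACCCGaaaaactgtc
sre-45 intron, chrII:13522011-13522040, plus strand: acagcgctgcGCGGAACCCGcaggatgtcg
upstream of snoRNA gene WBGene00220222, chrIV:15649405-15649434, minus strand: ataacgaggcGCGGAACCCGtgggttgtcg
upstream of snoRNA gene Y73B6A.14, chrIV:6664596-6664625, minus strand: attgtcgggcGCGGAACTCGtgagatgtca

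All of these 5 members except the one in Y46G5A.34 hold the core in its most frequent form. The Y46G5A.34 match scored 11.7 bits, against 30.3 bits for C33B4.4 and 28.7 bits for sre-45, with a threshold of 9.47 bits.

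A different sequence, the 8-mer AGACGCAG, was nearly as common at the members as the element. The examples are the member beside vps-60 and one of the members in zfp-1, with the 8-mer in capitals.
beside vps-60, chrV:8606411-8606440, minus strand: agaaataaacgAGACGCAGacacacatttc
zfp-1 intron, chrIII:8794943-8794972, plus strand: caagagagtagAGACGCAGacaaatagtgg

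The members lay mostly between genes and hardly at all in coding sequence. Summits were intergenic in 162 of 254 members (63.8%, 95% Clopper-Pearson interval 57.5 to 69.7), while 28.7% of all bases on these chromosomes that are more than 300 bp from a gene 5′ end are intergenic. Introns held 76 members (29.9%, interval 24.4 to 35.96), against 38.1% of such bases. Both intervals leave out the share of the bases, with intergenic sequence above it and introns below it. A single member, in ptr-12, a gene for a patched-related protein, lay in a coding exon (0.394%, interval 0.00997 to 2.17), against 26.9% of the bases. The 3′ untranslated regions (UTRs) held 8 members (3.15%, against 3.45% of the bases), the 5′ UTRs 5 (1.97%, against 0.634%) and exons of non-coding genes 2 (0.787%, against 2.24%). Only for the 5′ UTR among these 3 small classes did the interval, 0.642 to 4.53, leave out the share of the bases, and it did so narrowly. The intervals cover counting error only, peaks are not replicates of the experiment, and no p-value was computed.

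**Figure D1:**
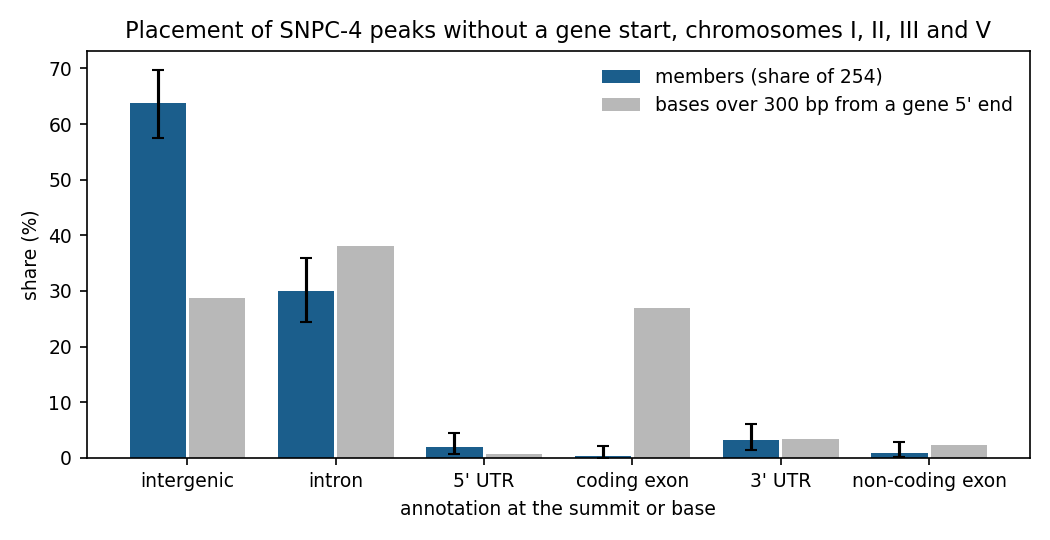
Share of the 254 members (blue, with 95% Clopper-Pearson intervals) and of all bases more than 300 bp from a gene 5′ end (grey, counted over every such base) in each annotation class, in percent. Intergenic sequence holds 63.8% of members and 28.7% of bases, and coding exons hold 0.394% of members and 26.9% of bases.

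Members clustered upstream of protein-coding genes even though the nearest 300 bp were closed to them by the rule. The nearest protein-coding 5′ end lay downstream of the summit, so that the member was on the promoter side of the gene, in 180 members (70.9%, interval 64.9 to 76.4), against 39.1% of bases. The strip from 301 to 500 bp upstream held 62 members (24.4%), against 3.96% of bases, and the strip from 501 to 1000 bp upstream held 43 (16.9%), against 8.21%. Between 1001 and 2000 bp upstream the shares were 11.4% of members and 10.3% of bases, and beyond 2000 bp they were 18.1% and 16.6%. On the downstream side each of the 4 strips held a smaller share of members than of bases, from 6 members (2.36%, against 4.88% of bases) between 301 and 500 bp to 38 members (14.96%, against 28.9%) beyond 2000 bp.

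**Figure D2:**
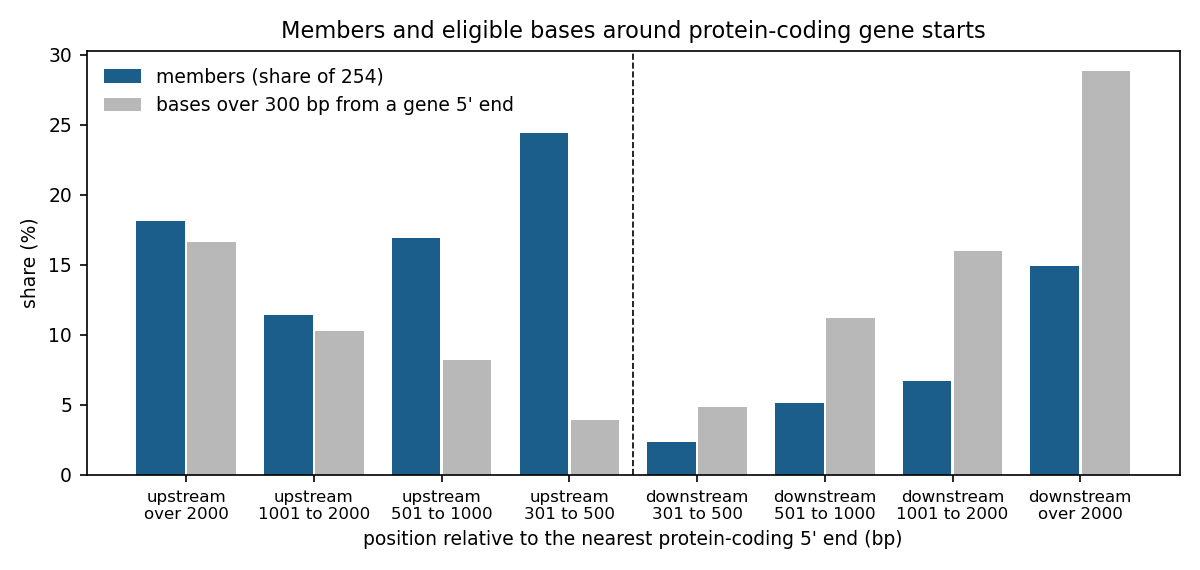
Share of the 254 members (blue) and of all bases more than 300 bp from a gene 5′ end (grey) by position relative to the nearest protein-coding 5′ end, marked by the dashed line, in percent. The 2 upstream strips nearest to the gene hold 24.4% and 16.9% of members, against 3.96% and 8.21% of bases.

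The median distance from a member to the nearest gene 5′ end was 904 bp (95% order-statistic interval 721 to 1086), with a range of 301 to 11582 bp. There were 76 members within 500 bp, 118 beyond 1000 bp and 12 beyond 5000 bp. The nearest 5′ end belonged to a protein-coding gene in 206 members, to a gene annotated as ncRNA in 27, to a pseudogene in 8, to an snoRNA gene in 6 and to a lincRNA gene in 4, with 1 member each nearest to an snRNA, a miRNA and a 21U-RNA gene. Some members were near starts that the rule did not count: 22 had an alternative transcript starting within 300 bp, and 5 had a RefSeq gene 5′ end that near. The next summit of the optimal list lay at a median of 15401.5 bp from a member (interval 12619 to 19409), with 15 members having one within 1000 bp and 4 within 500 bp. The spacing of other peaks was not measured for comparison.

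The peaks at either side of the distance limit are described with no test. The members nearest to it were an intronic one in Y71G12B.23 at 301 bp, with a signal of 51.7, and one 302 bp upstream of cept-2, a gene for a choline/ethanolamine phosphotransferase, with 55.1. The 2 peaks just inside it lay 300 bp from F18A11.12 and 295 bp from ldp-1, with signals of 31.7 and 33.7. The farthest 3 members were a pair in the 19925 bp intron of Y48C3A.5, at 11582 and 10452 bp from the nearest gene 5′ end, and V:8651492, which lay 8007 bp from the ncRNA gene F28A12.6. The Y48C3A.5 pair was 1986 and 856 bp from the nearest transcript 5′ end.

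Relative to the share of bases, members in gaps between protein-coding genes stood more often where both neighbours point away from each other. Of the 167 members in such gaps, 69 were between divergent genes (41.3%, interval 33.8 to 49.2), against 32.1% of the eligible bases in gaps. Tandem neighbours flanked 93 (55.7%, against 55.0% of bases), and convergent neighbours flanked 5 (2.99%, interval 0.979 to 6.85, against 12.9%). The gaps had a median length of 2817 bp, and the introns that held members had a median length of 1707 bp over the 75 members for which it was defined.

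The other 87 members lay within the bounds of a protein-coding gene, and counting genes of all biotypes 92 members lay in 84 different genes. The 7 host genes with more than 1 member, listed after their values were seen, were zfp-1 with 3 and bed-2, noca-1, tent-5, Y111B2A.12, Y48A6C.2 and Y48C3A.5 with 2 each. In zfp-1, which encodes a PHD-finger protein related to human AF10, the members had signals of 126, 49.95 and 42.2, and the last 2 carried AGACGCAG. All 3 of these zfp-1 members were found in both replicates.

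Signal, the value the authors' caller gave each peak from the pooled reads, was lower at members than at gene-start peaks. The member median was 39.8 (interval 38.5 to 41.3), with quartiles of 35.3 and 49.9 and a range of 31.1 to 582. Gene-start peaks had a median of 44.8 (interval 43.5 to 46.7), quartiles of 36.8 and 66.2 and a range of 31.1 to 1801. The ratio of these medians was 0.889, and the opposite ends of both intervals give 0.825 to 0.9498. Protein-coding-start peaks alone had a median of 43.8 and peaks without a gene start on IV and X one of 43.4. A signal above 100 was reached by 15 members (5.91%, interval 3.34 to 9.55), against 88 gene-start peaks (13.99%, interval 11.4 to 16.9) and 12.4% of the whole list. That member share was close to the 5.57% of protein-coding-start peaks (interval 3.64 to 8.11). These signals carry no error between replicates, since the pooled reads gave 1 value per peak. In whole worms, strong binding in few cells and weak binding in many cannot be told apart.

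**Figure D3:**
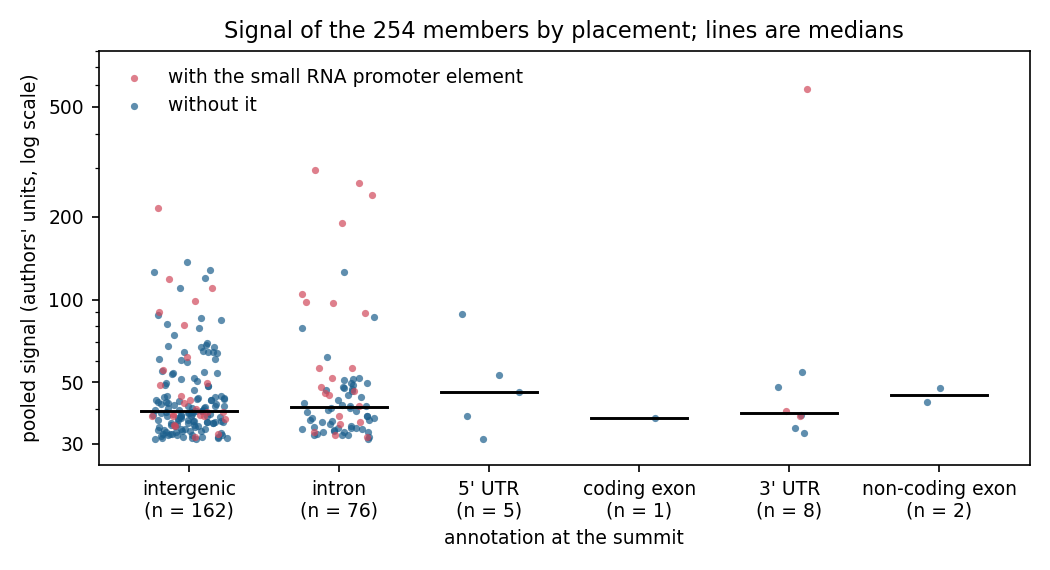
Pooled signal of each of the 254 members (points, log scale, authors' units) by annotation at the summit, with members that carry the small RNA promoter element in red, the others in blue, and black lines at the medians. The 6 highest members, from 190 to 582, all carry the element, and the medians of the classes lie between 37.0 and 46.3.

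The strongest member stood far above the rest. It lay in the 3′ UTR of bed-2 (III:11463991), a gene for a BED zinc-finger protein, and its signal was 262 in replicate 1, 322 in replicate 2 and 582 pooled, rank 27 of the 1781 peaks. A second member 1610 bp away, in an intron of the same gene, reached 46.6 and also carried the element. The next was intronic in Y46G5A.34 (II:12778584), with 122 in replicate 1, 176 in replicate 2 and 296 pooled. An intronic member in W04A8.6 (I:13859251) followed with 74.2 in replicate 1, 195 in replicate 2 and 266 pooled. Its nearest gene 5′ end was that of taf-1, which encodes a subunit of the general transcription factor TFIID, 2217 bp away.

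The intron of C33B4.4 (II:11376976) held a member with 95.5 in replicate 1, 139 in replicate 2 and 239 pooled. The sre-45 intron (II:13522034), in a gene of the serpentine chemoreceptor family, held one with 86.7, 104 and 190. This summit stood 733 bp downstream of the 5′ end of the snoRNA gene F54F11.6 and 785 bp from another optimal summit. The strongest intergenic member (II:9787970), 341 bp upstream of the cytochrome P450 gene cyp-13A2 and next to cyp-13A3, had 62.4 in replicate 1, 154 in replicate 2 and 214 pooled. All 6 of these carried the element and were found in both replicates.

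The next 4 members had no element. They were 428 bp upstream of rpl-35, which encodes a large-subunit ribosomal protein (50.9 in replicate 1, 87.5 in replicate 2, 137 pooled), and 721 bp upstream of the alpha-tubulin gene tba-7 (63.3, 63.3 and 128). The others were the zfp-1 intron (60.5, 63.4 and 126) and 306 bp upstream of F36A2.7 (41.7, 81.6 and 126), which carried AGACGCAG. Replicate 2 gave the higher value in 9 of these 10 strongest members, and the tba-7 member was level between the replicates.

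Apart from the one in bed-2, the UTR members were weaker than these 10 strongest members. As classes, the 5 in 5′ UTRs had a median signal of 46.3, above the intergenic median, and the 8 in 3′ UTRs had 38.7, slightly below it. Intergenic members had a median of 39.3. The highest in a 5′ UTR was in C34C12.2, with 25.9 in replicate 1, 65.7 in replicate 2 and 88.9 pooled. In the DNA alkyltransferase gene agt-2 a 5′ UTR member 397 bp downstream of the gene's own 5′ end reached 53.1 pooled (12.1 and 34.9), and in T10B5.3, 413 bp upstream of the kinetochore gene knl-3, one reached 46.3 (9.98 and 37.7) and was 229 bp from the 5′ end of an alternative transcript. Neither of these last 2 was found in both replicates. The 3′ UTR members in cept-2 (54.6 pooled, 519 bp upstream of the V-ATPase gene vha-13) and in the nuclear receptor gene nhr-88 (48.2 pooled) were, as was the one in an exon of linc-128 (47.7 pooled). The member in an exon of linc-164 (42.5 pooled) and the coding-exon member in ptr-12 (37.0 pooled) were not. No 5′ UTR member carried the element or AGACGCAG, while 3 of the 8 in 3′ UTRs carried the element.

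Fewer than 50% of the members were found in both replicates. A member was counted as found in a replicate when a summit lay within 200 bp in that replicate's list, cut at the 1781 strongest peaks. By this count 103 members (40.6%, interval 34.5 to 46.9) were in both lists, against 309 gene-start peaks (49.1%, interval 45.2 to 53.1) and 47.4% of all optimal peaks. Protein-coding-start peaks stood at 45.4% (interval 40.8 to 50.2) and peaks without a gene start on IV and X at 55.8% (interval 48.4 to 63.0). The interval of the members lay below the percentage of the whole list and below the interval of the peaks on IV and X, but overlapped that of the gene-start peaks. In replicate 2, 187 members were found (73.6%, interval 67.7 to 78.9), against 86.5% of gene-start peaks (interval 83.6 to 89.1) and 77.9% of the list. In replicate 1 the shares were 58.3% of members (148), 57.7% of gene-start peaks and 63.2% of the list. Replicate 1 alone held 45 members, replicate 2 alone 84, and neither cut list 22.

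The 103 members in both lists had a median pooled signal of 54.0, against 36.5 for the other 151, a difference that the cut by signal in each replicate builds in. All 15 members above 100 were in both. The uncut relaxed lists, with 20730 peaks in replicate 1 and 30000 in replicate 2, held 251 and 253 members. Over the 250 members with a value in both, the replicates' signals had a Spearman rho of 0.22 and a Pearson r of 0.41 on the log10 scale. These points share the pooled list that selected them, to which both replicates contributed. Replicate 2 had the higher value in 215 of the 250 members and in 1483 of the 1728 optimal peaks with both values, and the depth of the libraries is unknown. The member upstream of cept-2 near the distance limit was an extreme of the opposite kind, with 33.1 in replicate 1 and 6.71 in replicate 2.

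**Figure D4:**
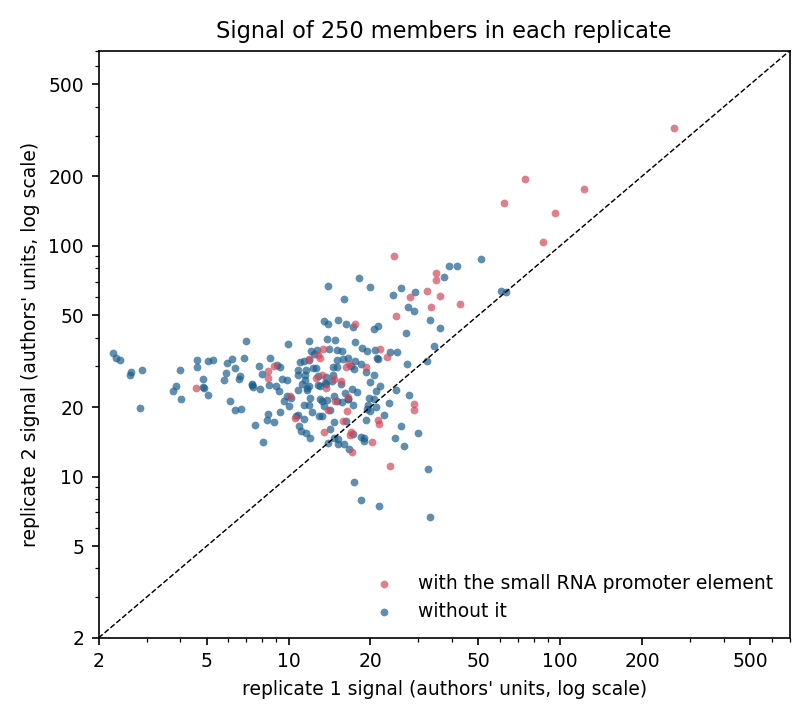
Signal of the 250 members with a value in both replicates' lists, replicate 1 on the horizontal and replicate 2 on the vertical axis (authors' units, both log scales), with carriers of the small RNA promoter element in red and equality dashed. Most points lie above the dashed line, 215 of 250, and the weaker members scatter widely, with rho 0.22 over all 250.

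A match to the small RNA promoter element above the score threshold was found at 1 in 5 members. Within 100 bp of the summit 51 members held it (20.1%, interval 15.3 to 25.5), against 2.56% of the windows 1000 bp to each side and 13.5% of all optimal peaks. Gene-start peaks held it in 13.4% (interval 10.8 to 16.3), although they include peaks used to learn it. Protein-coding-start peaks held it in 6.68% (interval 4.55 to 9.40), and peaks without a gene start on IV and X in 20%. At a stricter score of 23.6 bits, which 1 in 10 of the flank matches reach, 11 members (4.33%) kept it. The strongest member, in bed-2, scored 23.4 bits and did not. The shares of the other sets and of the whole list at this score were not computed. The exact 8-mer at its core, CGGAACCC, occurred in 18 members (7.09%) and in none of their 508 flank windows, against 5.11% of the whole list and 10% of peaks without a gene start on IV and X. The interval of the members, 4.25 to 11, includes both. The element is rich in G and C, and the members had a median GC content of 43.8%, against 37.1% in their flanks. The shares in flank windows are therefore not matched for base composition.

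Members with the element had a higher median signal than the others and a larger share found in both replicates, with overlapping intervals in each case. Their median was 45.0 (interval 39.1 to 55.7), against 39.2 (interval 37.9 to 41.1) for the other 203. Among the 15 members above 100, 9 carried it, against 42 of the 239 others. Both replicates held 28 of the 51 (54.9%, interval 40.3 to 68.9), against 75 of the 203 (36.9%, interval 30.3 to 44.0). Replicate 1 held 40 of the 51 and 108 of the 203, and replicate 2 held 38 and 149. Over all optimal peaks the median signal was 57.4 with the element and 41.2 without it, and both replicates held 163 of the 240 carriers. That list includes the peaks used to learn the element. At peaks without a gene start on IV and X the medians were 43.6 and 43.4, and both replicates held 19 of the 38 carriers.

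The centre of the element lay at a median of 24.5 bp from the summit and within 30 bp in 27 of the 51. The search covered only 100 bp to each side of the summit, so part of this closeness is built in. The element was found in 22 of the 76 intronic members (28.9%, interval 19.1 to 40.5) and in 26 of the 162 intergenic ones (16.05%, interval 10.8 to 22.6). These intervals overlap. Within protein-coding genes the element ran on the strand of the gene in 13 members and on the other strand in 12, and the remaining 26 were outside such genes. By chromosome it was carried by 9 members on I, 20 on II, 9 on III and 13 on V.

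Some members resembled each other, as groups formed after the sequences had been compared. Matches of at least 50 bp within 300 bp of the summits joined 8 members into a first group and 6 into a second, and all 14 carried the element. The first group had signals of 35.3 to 61.8 with pairwise identities of 72.0 to 83.1%, 6 of its members were intergenic, and the Y71G12B.23 member at the distance limit belonged to it. The second had signals of 45.0 to 239 with identities of 67.3 to 92.5%, and it included the introns of C33B4.4 and sre-45 and intronic members in F13D12.10 and dcs-1. The pair with 92.5% identity was V:20699042 and the dcs-1 member, with 100% and 89.6% of the bases at the summit masked as repeats. The cyp-13A2 member matched a member at II:7232140, 713 bp upstream of ctsa-3.1 (118.5 pooled), over 267 bp at 77.2% identity. Another 3 groups, of 3, 3 and 2 members with identities of 68.0 to 95.6%, held 1 carrier of the element among them.

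A search of the members' sequence against annotated snRNA, snoRNA, tRNA and rRNA genes outside the searched window found matches for 7 members, 4 of them with the element. V:4447700, with a modest signal of 37.8, was found in replicate 1 (23.7) but not in the cut list of replicate 2 (11.1). This member matched 4 of the annotated genes, and its best match covered all 154 bases of the snoRNA gene WBGene00220222 at 90.3% identity. Its element centre stood 58.5 bp upstream of where that match places the 5′ end, against a median of 58 bp at annotated genes, where the quartiles lay at positions -59.25 and -56 from the 5′ end. V:4447700 also matched genes annotated as ncRNA on X. They were F33C8.5 (292 bases at 80.5%), F33C8.10 (129 bases at 85.3%) and F28C10.5 (118 bases at 85.6%). V:20699042 matched F13C5.10, another gene annotated as ncRNA on X, over 94 bases at 72.3%. The C33B4.4 intron matched 56 of the 157 bases of the snoRNA gene Y73B6A.14 at 85.7%, and I:3152514 (80.5 pooled) matched 113 of them at 73.5%. I:8761091 (90.02 pooled) matched 36 bases of the snoRNA gene Y73F8A.1175 at 86.1% and all 147 bases of T28H11.31, a gene annotated as ncRNA on IV, at 99.3%. The element centres of these 3 stood 42.5 bp (C33B4.4), 16.5 bp (I:3152514) and 48.5 bp (I:8761091) upstream of the 5′ end that the snoRNA matches give, outside those quartiles. I:8761291, 200 bp from I:8761091, is a second summit at the same copy. The matches of II:11846116 to the SL2 RNA gene sls-2.13 (28 bases at 92.9%) and of II:8877776 to the snoRNA gene T07D4.7 (48 bases at 83.3%) were short, and neither member carried the element. T07D4.7 is also the gene with the 5′ end nearest to II:8877776, 516 bp away. These are resemblances in sequence. Whether any of the regions is transcribed was not measured in these data.

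AGACGCAG was the 8-mer with the largest difference in share between members and their flanks. It occurred in 48 members (18.9%, interval 14.3 to 24.3), in 1.97% of flank windows and in 9.26% of all optimal peaks. Gene-start peaks held it in 9.54% (interval 7.36 to 12.1) and protein-coding-start peaks in 11.4% (interval 8.58 to 14.7). Peaks without a gene start on IV and X held it in 11.1% (interval 6.97 to 16.4). The last 2 of these intervals overlap that of the members. Only 3 members held both AGACGCAG and the element, and 158 held neither. The median signal was 39.2 with AGACGCAG and 39.9 without it.

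Carriers of AGACGCAG stood at a larger median distance from genes than carriers of the element. This median distance to a gene 5′ end was 1509 bp for the 48, against 758 bp for the 51 with the element and 744 bp for the 158 with neither. Among the 118 members beyond 1000 bp, 31 held it (26.3%, interval 18.6 to 35.2), against 10 of the 62 members 301 to 500 bp upstream of a protein-coding gene (16.1%, interval 8.02 to 27.7), and these intervals overlap. The strongest carriers included the F36A2.7 member and I:17025. The member I:17025 lay in the convergent gap between the neuropeptide gene nlp-40 and rcor-1 and had 24.3 in replicate 1, 61.2 in replicate 2 and 85.9 pooled.

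Of the other sequences searched on both strands, the GA repeat GAGAGAGA occurred in 10.2% of members (interval 6.80 to 14.6), 3.15% of their flanks and 4.94% of the whole list. CCGCCC occurred in 8.66% of members, 4.13% of their flanks, 11.4% of gene-start peaks and 9.26% of the whole list, so that members were close to the list. AAACGCGC occurred in 5.12% of members (interval 2.75 to 8.59), against 11.4% of protein-coding-start peaks (interval 8.58 to 14.7), with 0.787% in the members' flanks. TATAAA was not more frequent at summits, with 13.8% of members and 17.5% of flanks. CTGTTTCA, the core of the 21U-RNA promoter motif, was found in 1 member (0.394%, interval 0.00997 to 2.17), against 1.18% of flanks, 0.318% of gene-start peaks on the same chromosomes, 0.526% of peaks without a gene start on IV and X and 8.93% of the whole list. The B box of tRNA genes, GGTTCGA, was found in 1.18% of members and 1.18% of flanks. Among all 8-mers, which were ranked after the values were seen, GCGGCCGA (28 members, 11.02%, against 0.591% of flanks and 3.02% of gene-start peaks) and GCAGCCGA (26 members, 10.2%, against 1.57% and 2.07%) were also frequent at members. A match says only that these letters are in the window.

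GC content rose at the summits of members. Within 100 bp of the summit members had a median GC content of 43.8%, against 37.1% in the flanks. The paired difference had a median of 7.21 percentage points (interval 5.97 to 8.96) and was positive in 201 of 254 members. It was 4.48 points at gene-start peaks (interval 3.73 to 5.22), 1.99 points at protein-coding-start peaks (interval 1.24 to 2.99) and 7.46 points at peaks without a gene start on IV and X (interval 4.98 to 9.20). At the summit itself the mean was 49.9% in the central 51 bases of members, 52.6% at gene-start peaks and 52.2% at protein-coding-start peaks. At 100 bp on the side of lower coordinates it was 38.6% at members, 34.0% at gene-start peaks and 31.1% at protein-coding-start peaks, where GC content dipped beside the summit. At members the mean fell lower farther out, to 34.04% and 34.4% at 300 bp to either side.

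**Figure D5:**
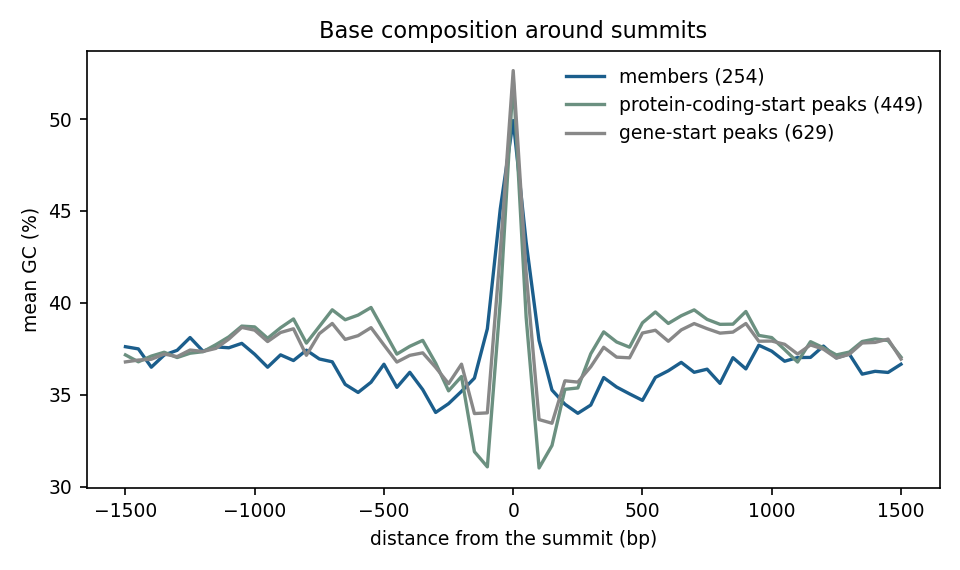
Mean GC content (percent) in 51-base windows by distance from the summit in genome coordinates, for the 254 members (blue), the 449 protein-coding-start peaks (green) and the 629 gene-start peaks (grey). All 3 rise to between 49.9% and 52.6% at the summit, and at 100 bp from it members stay above both others, which dip.

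The GC difference was largest in members with the element, at 11.9 points (interval 9.70 to 13.2). It was 8.46 points in the 45 with AGACGCAG alone (interval 5.22 to 11.9) and 5.72 in the 158 with neither (interval 2.99 to 6.97). The element and AGACGCAG are rich in G and C and were sought in the same windows. Sorting members by them therefore builds in part of these differences. Intronic members had a median of 7.59 points (interval 3.73 to 10.2) and intergenic members one of 7.09 (interval 5.97 to 9.45). Members 301 to 500 bp upstream of a protein-coding gene had 4.23 points (interval 1.74 to 6.47), against 8.33 (interval 6.97 to 10.2) for the other 192, and their GC content was 40.8%, against 45.0%. The ratio of CpG observed to expected had a median of 1.16 at members (interval 1.09 to 1.19), 1.02 in their flanks, 1.35 at gene-start peaks (interval 1.30 to 1.39) and 1.47 at protein-coding-start peaks (interval 1.43 to 1.52). At peaks without a gene start on IV and X the ratio was 1.22 (interval 1.16 to 1.28). The longest run of A or of T in the window had a median of 5.5 bases at members and 6 in the flanks.

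More than 50% of the bases were masked as repeats in the reference in 18 members, against 103 of the 629 gene-start peaks. A 36-mer shared with another place in the genome occurred in 19 members, against 86 gene-start peaks, and covered over 50% of the window in 2 members, II:5200370 and V:20699042. Shared 36-mers covered 35.5% of the window of I:8761091, which matched T28H11.31 on IV, and 24.7% of that of I:8761291. None of the 10 strongest members contained a shared 36-mer. How the authors treated reads that map to several places is not given in the sources used here.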

How the data were processed

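The deposited peak lists on build ce11 (the assembly WBcel235) were used: the optimal list of the series and the relaxed lists of each replicate and of the pooled reads, all in narrowPeak column order. Per the labels, fragments were 150 to 350 bp. The authors' signal value (column 7) was used as deposited, within each list. The −log10 q value in the deposited lists did not vary over the optimal list and was left out. The aligner, the caller, its treatment of controls and the threshold of the irreproducible discovery rate are not given in the sources used here. Read depth is unknown, so intervals cover the counting of peaks only, and the signal has no error between replicates.

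Genes came from the Ensembl annotation of WBcel235 (46890 genes), sequence from the RefSeq genome of the same build. Summits were placed in the order coding exon, 5′ UTR, 3′ UTR, non-coding exon, intron and intergenic. Shares carry 95% Clopper-Pearson intervals and medians exact order-statistic intervals (scipy 1.17.1); with 1 group of 2 replicates no test between samples was possible, and no p-value is given. The element matrix was scanned on both strands of 201 bp windows, with the threshold at the score that 2% of the flank windows of all optimal peaks pass. Sequence matches used blastn 2.17.0 (word size 11, E-value 1e-4, 300 bp to each side of the summit). The placement, distance and element scripts were tested on simulated data.

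The members, motifs and regions named were chosen with earlier results of these data known. Regions named were the 10 members with the highest signal, the 3 highest of each placement class, the 5 highest with the element and the 3 highest with AGACGCAG, the 2 members and 2 other peaks nearest to the distance limit and the 3 farthest members; others were named after their values were seen, and 1 region that the rule names is not reported here. Alternatives varied the distance, the gene set, the list, the replicates, the matching distance, the window, the flanks and the element threshold.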

Additional observations from a re-analysis of the deposited data

How the results depend on the processing

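Of 92 alternative values for the 8 main results, 66 stayed within the interval of the reported value or, for the number of members, which has none, within 1.5 times of it; 26 moved and none reversed. The number of members was 450 with a limit of 150 bp, 178 at 500 bp, 118 at 1000 bp, 102 among the stronger 50% of the list and 103 among peaks found in both replicates. The intergenic share was 74.9% at 150 bp, 57.3% at 500 bp, 53.4% at 1000 bp and 69.8% with transcript 5′ ends, and the intronic share 20% at 150 bp, 40.7% at 1000 bp and 24.1% with transcript 5′ ends. The share in both replicates was 79.4% in the stronger 50% and 98.4% with uncut lists. The signal ratio was 0.819 among peaks found in both replicates. The GC difference was 4.60 points at 150 bp, 9.20 at 1000 bp, 11.4 with 50 bp and 4.82 with 150 bp to each side of the summit. The element share was 14.9% at 150 bp, 27.5% in the stronger 50%, 27.2% among peaks found in both replicates, 14.96% with 50 bp to each side and 4.33% at the stricter threshold; the AGACGCAG share was 26.3% at 1000 bp and 12.6% with 50 bp to each side. With either replicate's list alone, the number of members was 214 to 268, the intergenic share 63.1 to 63.8%, the intronic share 28.4 to 30.8%, the signal ratio 0.835 to 0.874, the GC difference 6.59 to 7.34 points, the element share 14.6 to 22.4% and the AGACGCAG share 14.95 to 19.03%; the element share was lower without replicate 1, and the cause was not tested. The share found in both replicates has no value without a replicate. RefSeq gene 5′ ends, an alternative chosen after seeing the data, gave 261 members. No paired analysis was possible because there is 1 group.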
